A study of Mus musculus with 4 samples.

Results

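The genes described here are 38 mouse genes of glycolysis and the hypoxia response, taken as a list of names that was drawn up with earlier results of these arrays known. They comprise 14 glycolytic enzymes, 20 other target genes of the hypoxia-inducible factors (HIF), and 4 factors that sense oxygen or carry the response. A single-symbol probe set represented 33 of the 38, out of 22180 genes measured in the series. These 33 were 11 glycolytic enzymes, 18 other HIF targets and all 4 oxygen-sensing factors. Aldoa, Bnip3l and Ankrd37 occurred only in probe sets that carry a second symbol, so no value is assigned to them, and Gpi1 and Eno1 were not analysed here.

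Transcripts of Beta-TC-6 cells, an established insulin-producing mouse beta cell line, were profiled on the Mouse Gene 2.1 ST array of Affymetrix. The siNF90 group (2 arrays) received a mixture of RNAi duplexes against NF90, a double-stranded RNA-binding protein, and the siNTC group (2 arrays) received a negative control siRNA, both with a lipid transfection reagent in medium with 25 mM glucose. The labels name no oxygen level for either group and do not say whether separate cultures gave the arrays of a group, so the spread behind each p-value may be technical only. Both groups are 1 cell line, and the NF90 transcript itself was not analysed here, so the knockdown rests on the label.

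Glycolysis converts glucose to pyruvate in the cytosol. In beta cells most pyruvate enters mitochondria, where its oxidation couples glucose to insulin release, and genes that would divert it to lactate are kept low. When oxygen falls, prolyl hydroxylases (Egln1 and Egln3) stop marking the HIF alpha subunits for destruction by the von Hippel-Lindau protein (Vhl), and the alpha subunit pairs with Arnt to activate glycolytic enzymes, lactate export, angiogenic factors and mitophagy receptors. HIF binds short hypoxia response elements whose core reads ACGTG or GCGTG. In human tumour cells NF90 binds the messenger RNA of VEGFA under low oxygen and stabilises it.

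The proximal promoters of the 5 genes that were higher in siNF90 at an unadjusted p under 0.05, ordered by that p, are shown because they are where the known binding sequence of HIF can be looked for. Each run is the 250 bases before the annotated start, 5′ to 3′ on the strand of the gene, from RefSeq (GRCm38.p6), with capitals for the core ACGTG or GCGTG on either strand.
Slc16a3, chr11:120948817-120949066, plus strand: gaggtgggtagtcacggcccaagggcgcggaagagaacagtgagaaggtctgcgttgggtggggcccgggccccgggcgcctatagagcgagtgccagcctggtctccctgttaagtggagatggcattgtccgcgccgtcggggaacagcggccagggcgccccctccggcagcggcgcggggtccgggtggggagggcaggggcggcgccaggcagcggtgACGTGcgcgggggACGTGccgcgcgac
Bnip3, chr7:138909507-138909756, minus strand: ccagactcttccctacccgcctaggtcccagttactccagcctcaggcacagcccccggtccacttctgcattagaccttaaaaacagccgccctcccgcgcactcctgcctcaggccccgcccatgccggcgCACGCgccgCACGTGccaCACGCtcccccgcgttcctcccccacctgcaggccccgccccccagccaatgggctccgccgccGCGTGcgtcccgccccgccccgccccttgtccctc
Eno2, chr6:124769674-124769923, minus strand: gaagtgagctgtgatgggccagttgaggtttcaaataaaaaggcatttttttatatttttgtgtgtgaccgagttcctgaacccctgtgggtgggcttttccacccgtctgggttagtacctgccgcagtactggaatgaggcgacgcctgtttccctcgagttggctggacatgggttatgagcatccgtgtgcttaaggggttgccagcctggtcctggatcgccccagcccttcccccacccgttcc
Ddit4, chr10:59951771-59952020, minus strand: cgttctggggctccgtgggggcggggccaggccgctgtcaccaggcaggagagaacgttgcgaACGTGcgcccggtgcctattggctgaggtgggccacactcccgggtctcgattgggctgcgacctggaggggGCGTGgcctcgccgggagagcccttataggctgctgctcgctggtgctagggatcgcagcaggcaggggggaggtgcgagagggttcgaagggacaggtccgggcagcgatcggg
Egln3, chr12:54203875-54204124, minus strand: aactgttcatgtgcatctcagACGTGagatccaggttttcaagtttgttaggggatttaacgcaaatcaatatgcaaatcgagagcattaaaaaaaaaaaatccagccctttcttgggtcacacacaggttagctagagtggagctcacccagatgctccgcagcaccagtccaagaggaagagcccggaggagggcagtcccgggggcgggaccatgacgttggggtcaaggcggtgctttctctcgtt

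The Slc16a3 promoter held the core ACGTG at 27 and 14 bases before the start, both on the strand of the gene. The Bnip3 promoter held 5 matches, at 117, 108, 107, 99 and 35 bases before the start, and those at 108 and 107 overlap in 1 palindrome, CACGTG, which is also the E-box motif. Ddit4 had matches at 187 and 115 bases before the start and Egln3 had a match at 229, while these letters are not in the Eno2 window. RefSeq windows of 300 bases (250 before and 50 after the start) matched 35 of the 38 genes by symbol. At least 1 core lay in a window of 31 of these 35 genes (88.6%), against 12628 of 27025 genes with a window (46.7%). The ACGTG form alone lay in a window of 23 of the 35 (65.7%), against 21.8% of genes. Counted by window, the shares were 78.8% of 52 windows against 43.8% of 32851 for either core. For ACGTG alone they were 51.9% against 19.6%. Apart from 3 oxygen-sensing factors, the 35 genes were listed as glycolytic enzymes or other HIF targets, and several have more than 1 window. These shares are therefore a description and not a test. Among the measured genes, the log2 difference between siNF90 and siNTC was above 0 in 15 of 21 with ACGTG and in 7 of 10 without it, and the medians were 0.13 and 0.1.

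The arrays shared their scale, with array medians of 1.65 to 1.68 on the log2 scale. Within a group, the absolute difference between the arrays had a median of 0.15 in siNF90 and 0.15 in siNTC. Of 12 beta cell markers measured, 11 lay at or above the median level of all genes (1.84), Ins2, Iapp and Pdx1 among them. So did all 5 markers of other islet cells, with Gcg (glucagon) at 8.88 and 8.78 in siNF90 and 8.5 and 8.75 in siNTC. Of 8 markers of stroma, endothelium and blood, 7 lay below it. The exception was Cd68, a lysosomal glycoprotein abundant in macrophages, which stood at 4.44 and 4.48 in siNF90, against 3.32 and 3.35 in siNTC, and passed the threshold in the limma fit with a trend described below (adjusted p = 0.0217). The summed level of these 8 markers (2 to the power of the log2 value) was 37.6 and 39 in siNF90, against 26.7 on both siNTC arrays. This sum follows Cd68, the brightest of the 8, and does not show a rise of the set. Of the 8 markers, 3 had a difference above 0 and 5 below it (median -0.02). The macrophage and leukocyte markers Adgre1 and Ptprc lay below the median level and overlapped between the groups. The part of Cd68-expressing cells in the differences given below was not tested. No background measure comes with the values, so whether a low one was detected is unknown, and the small number of arrays limits the precision.

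The gene of this group with the largest difference between siNF90 and siNTC cells was Slc16a3, the plasma membrane transporter that exports lactate from glycolytic cells. Bnip3, a receptor that marks mitochondria for autophagy, Ddit4, an inhibitor of the growth kinase complex mTORC1, the glycolytic enzyme Eno2 and the prolyl hydroxylase Egln3 were also higher in siNF90, while Ndrg1, a cytoplasmic protein strongly induced by hypoxia, was lower. No gene of the group passed limma's test over all genes with Benjamini-Hochberg adjustment (adjusted p from 0.344 to 1), nor did any of the 22180 genes (0%). At an unadjusted p under 0.05 limma gave 5 higher and 1 lower gene of 33, which is 15.2% and 3.03%, against 5.87% and 4.41% of all genes. Leaving out each array in turn, the difference of Ddit4 ran from 0.275 to 0.585 and that of Eno2 from 0.365 to 0.455. Egln3 then ran from 0.31 to 0.36 and Ndrg1 from -0.345 to -0.315. Such a run leaves 1 array in a group, so no count of genes is given for it. With a prior variance that follows the level of the gene (the trend), an alternative form of the limma test, still 0 of the 33 passed after adjustment, against 0.455% of all genes.

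Slc16a3 stood at 3.98 and 3.98 on the siNF90 arrays, against 2.96 and 3.15 on the siNTC arrays (log2). Both siNF90 values exceeded both siNTC values. The difference was 0.93 ± 0.13 (log2, SE of the limma fit, n = 2 arrays each), a 1.9-fold higher level in siNF90, with a 95% interval of 0.61 to 1.24 (limma, unadjusted p = 0.000372, adjusted p = 0.344). Only 0.234% of all genes had a difference of larger size. A probe set shared by Slc16a3 and Csnk1d did not show it (difference -0.05), and its signal cannot be assigned to either gene. With the trend, Slc16a3 also missed the threshold (limma adjusted p = 0.0571).

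Bnip3 stood at 5.64 and 5.61 on the siNF90 arrays, against 5.13 and 4.98 on the siNTC arrays. The groups did not overlap, and the difference was 0.57 ± 0.12 (1.48-fold; limma adjusted p = 0.357, and 0.0817 with the trend). Ddit4 stood at 2.99 and 2.68 on the siNF90 arrays, against 2.42 and 2.39 on the siNTC arrays. The groups did not overlap, though the siNF90 arrays differed between themselves by more than the siNTC arrays did, and the difference was 0.43 ± 0.15 with all arrays and 0.28 without the first siNF90 array. Egln3 stood at 5.53 and 5.48 on the siNF90 arrays, against 5.17 on both siNTC arrays. Its difference of 0.34 ± 0.12 exceeded the spread within either group (limma adjusted p = 0.44).

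Ndrg1 was the 1 gene of the 33 with both siNF90 values below both siNTC values. It stood at 6.12 and 6.15 in siNF90, against 6.45 and 6.48 in siNTC, a difference of -0.33 ± 0.12 (limma adjusted p = 0.442). With the mean of its probe sets the difference was -0.19, and the unadjusted p was then above 0.05. The second probe set lay below the median level of all genes on every array, so this mean is no independent check. The gap between the groups was about as large as that of Egln3, with the opposite sign.

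**Figure D1:**
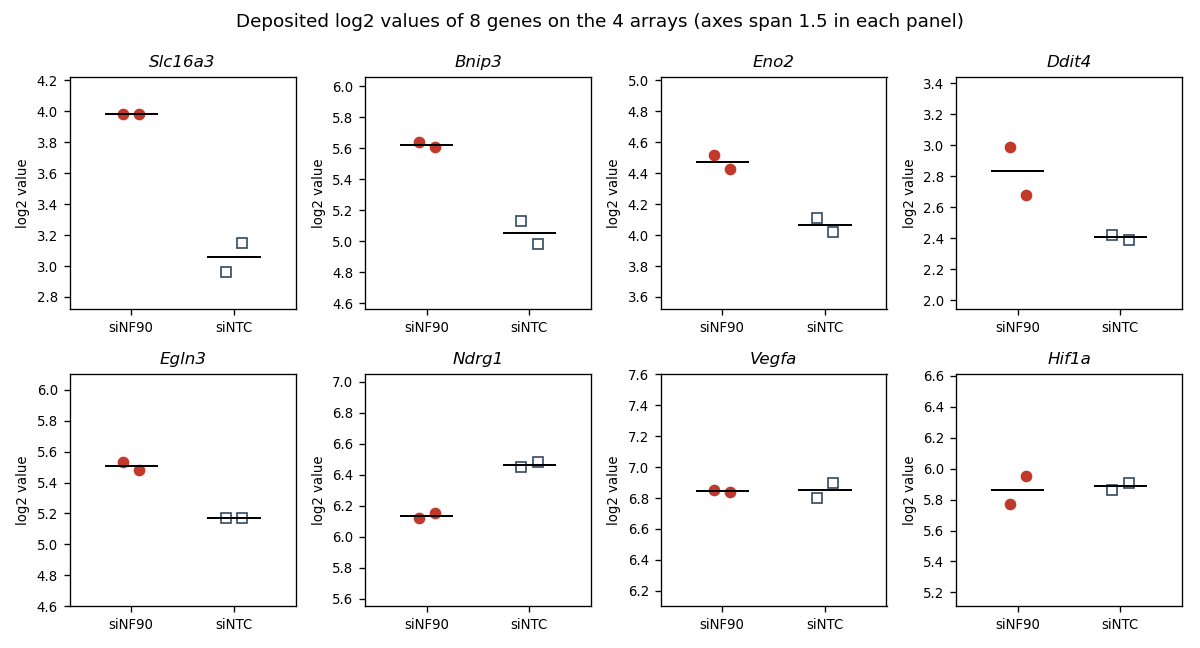
Deposited log2 values (vertical axes, each spanning 1.5) of 8 genes on the siNF90 arrays (filled circles, left) and the siNTC arrays (open squares, right), with group means as horizontal lines. Slc16a3 lay at 3.98 on both siNF90 arrays, against 2.96 and 3.15 on the siNTC arrays, Ndrg1 lay lower in siNF90, and the groups overlapped in Vegfa and Hif1a.

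Among the glycolytic enzymes, 10 of 11 measured had a difference above 0 (90.9%), and in 7 both siNF90 values exceeded both siNTC values (63.6%), against 53.6% and 21.9% of all genes, and the sizes were small. Their median log2 difference was 0.13 with a range of -0.01 to 0.41, beside a median of 0.02 over all genes. None passed limma's test (smallest adjusted p = 0.409). The steps of the pathway are given in order below.

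Hk2, a hexokinase that phosphorylates glucose in many tissues but is normally scarce in beta cells, lay below the median level of all genes in both groups, at 1.31 and 1.43 in siNF90 and 1.25 and 1.36 in siNTC. The groups overlapped. Of the phosphofructokinases, which commit sugar to glycolysis, Pfkp stood at 7.71 and 7.8 in siNF90 and 7.56 and 7.55 in siNTC, a difference of 0.2 ± 0.12, and Pfkl differed by 0.12 ± 0.12. Pfkm stood at 4.57 and 3.51 on the siNF90 arrays, against 3.79 and 3.82 in siNTC. The siNF90 arrays of Pfkm lay on opposite sides of siNTC, so its difference of 0.24 ± 0.33 took either sign when 1 of them was left out (-0.3 without the first, 0.77 without the second).

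Aldoc, an aldolase best known from brain, stood at 3.73 and 3.66 in siNF90, against 3.28 and 3.51 in siNTC, a difference of 0.3 ± 0.13 (limma adjusted p = 0.519) that was 0.19 without the first siNTC array. The groups did not overlap. Tpi1, which interconverts the triose phosphates, differed by 0.09 ± 0.12. Gapdh, the next enzyme and a common reference gene, stood at 10.22 and 10.27 in siNF90, against 10.19 and 10.2 in siNTC. Its 95% interval ran from -0.24 to 0.34, and 8 of the 11 probe sets that carry Gapdh also carry a second symbol, so signal of near-identical copies may enter its value.

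Pgk1, which makes the first ATP of the payoff phase and is a classical HIF target, stood at 8.75 and 8.77 in siNF90, against 8.62 and 8.64 in siNTC. The groups did not overlap, and the difference was 0.13 ± 0.12, with a 95% interval of -0.15 to 0.41. With the trend the SE was 0.05 (limma unadjusted p = 0.0338, adjusted p = 0.353). Pgam1, a mutase, stood at 6.72 and 6.41 in siNF90 and 6.8 and 6.35 in siNTC, so it varied more within the groups than between them.

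Eno2, the enolase of neurons and endocrine cells, stood at 4.52 and 4.43 in siNF90, against 4.11 and 4.02 in siNTC. It had the largest difference of the 11 enzymes, 0.41 ± 0.12 (1.33-fold; limma unadjusted p = 0.015, adjusted p = 0.409). Pkm, the pyruvate kinase that ends the pathway, stood at 7.81 and 7.59 in siNF90, against 7.56 and 7.59 in siNTC. The second siNF90 array equalled the second siNTC array, so the groups overlapped.

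Among the 18 other HIF targets, 12 had a difference above 0 and 6 below it, with a median of 0.14 and a range of -0.33 to 0.93. In 8 the siNF90 values exceeded both siNTC values (44.4%, against 21.9% of all genes), and in Ndrg1 they were below both (5.56%, against 17.9%). This set therefore held the largest differences in both directions, while its middle lay close to that of the enzymes.

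Of the regulators of glycolytic flux and pyruvate use in this group, Pdk1 had the largest difference. Pfkfb2, Pfkfb3 and Pfkfb4 make or remove the sugar bisphosphate that activates phosphofructokinase, and they differed by 0.17 ± 0.14, 0.2 ± 0.16 and -0.01 ± 0.38. In all 3 the groups overlapped. Pdk1, which phosphorylates and switches off pyruvate dehydrogenase, stood at 4.22 and 4.47 in siNF90, against 3.86 and 4.17 in siNTC. The groups did not overlap, and the difference of 0.33 ± 0.16 was 0.18 without the first siNTC array and 0.21 without the second siNF90 array (limma adjusted p = 0.554 with all arrays).

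Secreted factors showed no difference beyond the spread between arrays. Vegfa, the growth factor of blood vessels, stood at 6.85 and 6.84 in siNF90, against 6.8 and 6.9 in siNTC. The groups overlapped, the difference was -0.01 ± 0.12, and its 95% interval of -0.3 to 0.29 leaves room for changes of up to that size in either direction. Adm, a vasodilator peptide, stood at 2.44 and 1.69 in siNF90 and at 1.44 and 2.46 in siNTC, so its arrays differed more within groups than between them.

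Of the oxygenases and matrix hydroxylases, Egln1, the main oxygen sensor of the pathway, differed by 0.09 ± 0.12 against 0.34 ± 0.12 for its relative Egln3. P4ha1 and P4ha2, the catalytic subunits of collagen prolyl hydroxylase, differed by 0.19 ± 0.12 and -0.02 ± 0.13. Kdm3a, a histone demethylase, differed by 0.08 ± 0.12. The siNF90 values exceeded the siNTC values in Egln1 and P4ha1, and the groups overlapped in P4ha2 and Kdm3a.

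The remaining HIF targets have other roles. Car9, a membrane carbonic anhydrase that exports acid, lay below the median level in both groups, and its difference was 0.28 ± 0.13. A second Car9 probe set, also below the median level, gave -0.05 with overlapping groups. The count of Car9 among the genes without overlap rests on the brighter probe set alone. Hilpda, a lipid droplet protein, differed by -0.13 ± 0.22, and the mitochondrial protein Higd1a by -0.2 ± 0.14. The groups overlapped in Hilpda and Higd1a.

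The transcripts of the HIF machinery showed no difference that passed the test, with wide intervals. Hif1a, the oxygen-regulated alpha subunit, stood at 5.77 and 5.95 in siNF90, against 5.86 and 5.91 in siNTC. Its difference was -0.03 ± 0.13 with a 95% interval of -0.34 to 0.29. Hif1a is controlled mainly through the stability of its protein, which arrays do not measure. Arnt stood at 5.31 and 5.64 in siNF90 and 5.42 and 5.82 in siNTC, and Vhl at 3.51 and 3.29 in siNF90 and 3.48 and 3.39 in siNTC. The groups overlapped in both. Epas1, the alpha subunit HIF-2 alpha, stood at 1.28 and 1.45 in siNF90, against 1.22 and 1.14 in siNTC, below the median level on all 4 arrays. Its siNF90 values exceeded both siNTC values, by a difference of 0.19 ± 0.13 (limma adjusted p = 0.678).

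**Figure D2:**
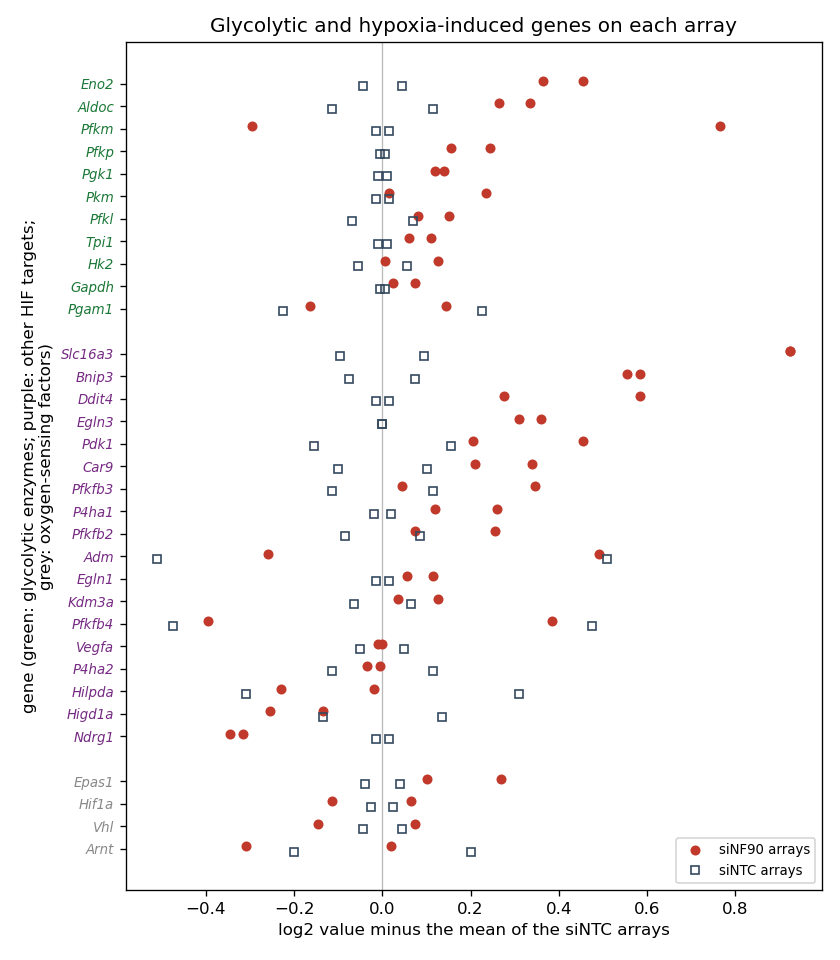
Values of the 33 measured genes on each array, as the log2 value minus the mean of the siNTC arrays (horizontal axis), with siNF90 arrays as filled circles and siNTC arrays as open squares. In 16 genes both siNF90 arrays lay to the right of both siNTC arrays and in Ndrg1 to the left.

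Over the 33 measured genes, both siNF90 values exceeded both siNTC values in 16 (48.5%) and were below them in 1 (3.03%). Over all genes the shares were 21.9% above and 17.9% below. Genes at or above the median level, as 30 of the 33 were, had shares of 26.2% and 21.6%. These counts are a description, since the genes were not tested as a list.

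The glycolytic enzymes were compared with the other HIF targets as the choice of genes implies. Relative to the siNTC mean, the median of the enzymes was 0.15 on the first and 0.11 on the second siNF90 array, against -0.01 and 0.01 on the siNTC arrays. The median of the other HIF targets was 0.23 and 0.07 on the siNF90 arrays, against -0.02 and 0.02 on the siNTC arrays. Each gene's own siNTC mean was subtracted, so the 2 siNTC values of a set mirror each other around 0 by construction. The same holds for the siNTC gaps below. Both sets lay above the siNTC mean on both siNF90 arrays, and the first siNF90 array gave the higher value in each. The enzymes minus the other targets gave a gap of -0.02 between the medians of the gene differences, and on single arrays the gap was -0.08 and 0.04 in siNF90 and 0.01 and -0.01 in siNTC. Its sign differed between the siNF90 arrays, so no difference between the sets was resolved. With 2 arrays a group, the smallest two-sided p that an exact permutation test allows is 0.333.

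**Figure D3:**
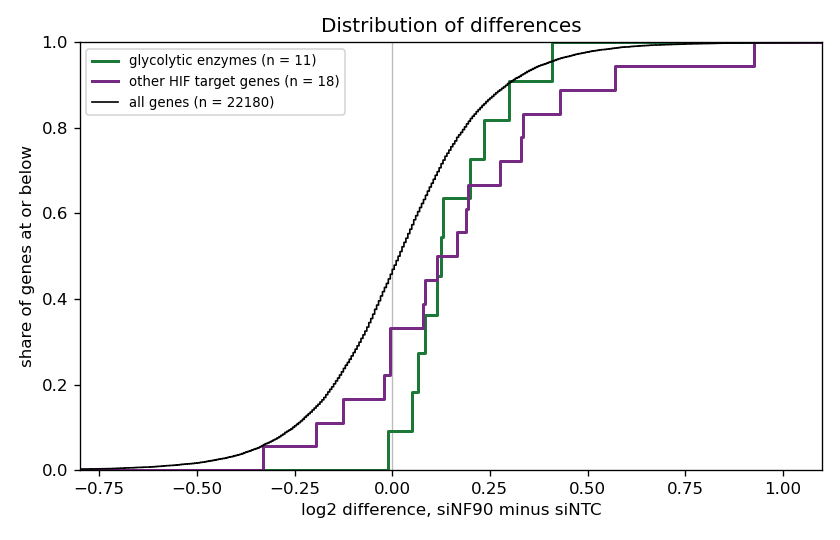
Cumulative share of genes (vertical axis) by log2 difference, siNF90 minus siNTC (horizontal axis), for 11 glycolytic enzymes, 18 other HIF targets and all 22180 genes. The medians were 0.13, 0.14 and 0.02, and the purple curve of the other HIF targets reaches further to both sides than the green curve of the enzymes.

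**Figure D4:**
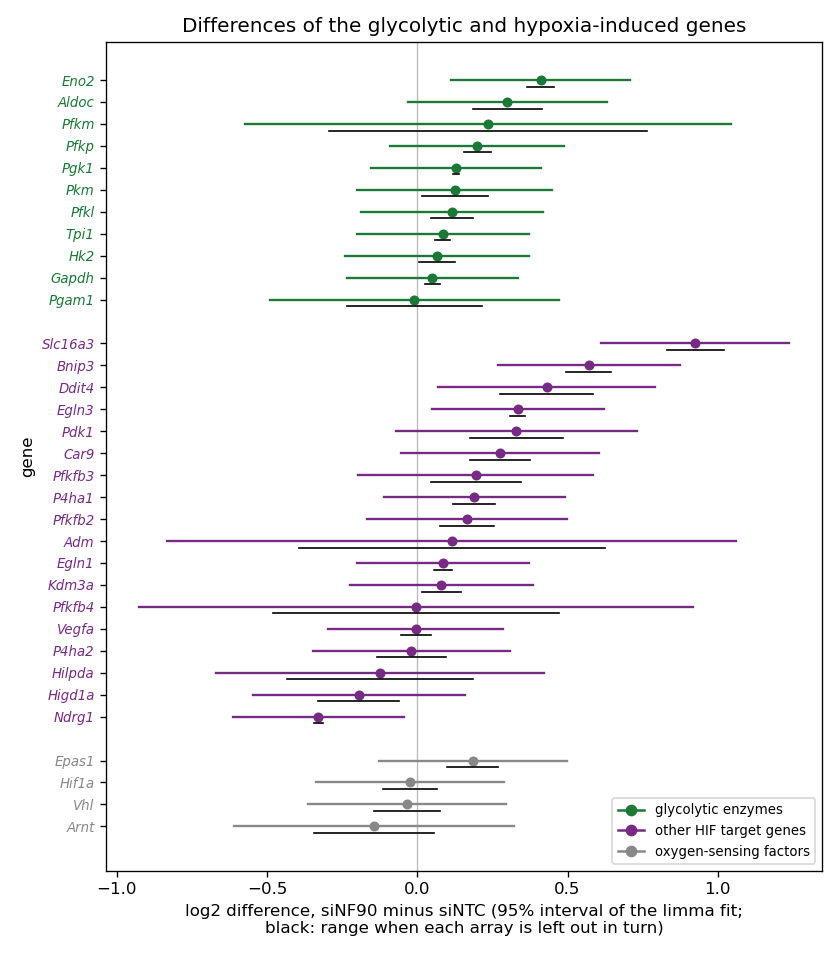
Log2 difference of each measured gene (points, siNF90 minus siNTC) with the 95% interval of the limma fit (coloured lines) and the range when each array was left out in turn (black lines). The intervals of Slc16a3, Bnip3, Ddit4, Eno2, Egln3 and Ndrg1 exclude 0 before adjustment over all genes, and Pfkm, Adm and Pfkfb4 have the widest intervals.

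Other genes of glucose and pyruvate handling did not share a direction. Of 45 listed, 39 were measured, and 20 had a difference above 0 and 19 below it (median 0.03). None passed limma's test (smallest adjusted p = 0.342), and 4 were higher and 2 lower at an unadjusted p under 0.05 (10.3% and 5.13%, against 5.87% and 4.41% of all genes). The glucose transporter Slc2a1, a HIF target, stood at 6.49 and 6.38 in siNF90, against 5.96 and 6.05 in siNTC, while Slc2a2, the main glucose transporter of rodent beta cells, stood at 4.78 and 4.86 in siNF90, against 6 and 5.8 in siNTC. The differences were 0.43 ± 0.12 and -1.08 ± 0.13, and with the trend Slc2a2 passed the threshold (limma adjusted p = 0.0153).

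Gbe1, the glycogen branching enzyme, differed by 0.42 ± 0.12, with 3.99 on both siNF90 arrays against 3.51 and 3.64 in siNTC. Slc2a3, another transporter of the family, differed by -0.48 ± 0.12 at a level below the median of all genes. Hk1, Ldha and Slc16a1 were chosen after their values were seen. Hk1 differed by 0.37 ± 0.13 and Ldha, the lactate dehydrogenase subunit that beta cells keep low, by 0.33 ± 0.12. Ldha stood at 2.2 and 2.12 in siNF90, against 1.85 and 1.82 in siNTC. Slc16a1, the relative of Slc16a3 that beta cells also keep low, stood at 3.61 and 3.32 in siNF90 and 3.39 and 3.16 in siNTC, with overlapping groups.

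Of 53 further hypoxia genes, 47 were measured, and 22 had a difference above 0 and 25 below it (median -0.01). None passed limma's test (smallest adjusted p = 0.357), with 5 higher and 3 lower at an unadjusted p under 0.05 (10.6% and 6.38%, against the same 5.87% and 4.41%). Gbe1 stands in both lists and is counted in each. Ak4, a mitochondrial adenylate kinase, stood at 2.87 and 2.8 in siNF90, against 2.06 and 2.21 in siNTC, a difference of 0.7 ± 0.12. Hmox1, the haem-degrading oxygenase, was higher by 0.49 ± 0.14. The transferrin receptor Tfrc stood at 7.73 and 7.84 in siNF90, against 8.18 and 8.21 in siNTC, and with the trend it passed the threshold (limma adjusted p = 0.0426). This wider list therefore had targets of HIF on both sides of 0, and its median lay close to that of all genes.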

How the data were processed

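The authors deposited 1 table of log2 values for 41345 probe sets on 4 arrays, and the submitters' processing notes name Transcriptome Analysis Console. The version and the steps of background correction, normalization and summarization were not given in the sources used here. Base 2 was taken because 5 to 10 values per array exceed 11.09, the natural logarithm of a scanner's highest value.

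Of the probe sets, 23521 had 1 gene symbol, 1814 several and 16010 none here. A gene with more than 1 single-symbol probe set (1082 genes) was represented by its brightest one on average, which gave 22180 genes. The fit used limma 3.58.1 in R 4.3.3 (lmFit and eBayes without a trend, siNF90 minus siNTC, two-sided, Benjamini-Hochberg over all genes, threshold 0.05), with 2 residual and 3.92 prior degrees of freedom. The scripts were tested on simulated data.

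The genes and lists were chosen with earlier results of these data known. All 38 genes are named. Values on each array are given for 12 fixed genes where measured and for those whose groups do not overlap with a difference of at least 0.3, and some others were added. Alternatives were a trend or robust prior, the replicate number as a block, median centring, quantile normalization, the mean of probe sets, a filter on level and leaving out each array.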

Additional observations from a re-analysis of the deposited data

How the results depend on the processing

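None of the 33 genes passed the threshold under any alternative run. Over all genes, 101 passed with the trend and 0 in the planned fit, where 2281 had an unadjusted p under 0.05, and 0 under each other alternative. The replicate numbers are not stated to pair the arrays, and the deviations of same-numbered arrays did not go together (r = -0.02 across genes). With the replicate block 0 genes passed. At an unadjusted p under 0.05 limma with the block gave 6 higher and 1 lower gene of the 33, and 1871 of the 22180 genes. The mean of probe sets gave 5 higher and 0 lower of the 33, and 2260 of the 22180 genes. Leaving out an array leaves 1 array in a group and fewer degrees of freedom, so no such count is given there. Leaving out each array in turn, 22 to 28 genes of 33 were separated between the groups, against 17 with all arrays. With 1 array against 2, any gene separates more easily. The share of all genes separated in these runs is not given here, so the rise cannot be read as a property of the 33. The median of the glycolytic enzymes then ran from 0.11 to 0.185, that of the other HIF targets from 0.065 (without the first siNF90 array) to 0.2325 (without the second) and the gap between them from -0.0825 to 0.05. The gap was also above 0 with the filter on level (0.01) and with the mean of probe sets (0.01). The sign of small differences turned, for Vhl with quantile normalization (0.005) and for Vegfa with quantile normalization (0.0012) and median centring (0.01). Leaving out each array, Hif1a ran from -0.115 to 0.065, Arnt from -0.345 to 0.055, Vhl from -0.145 to 0.075 and Vegfa from -0.055 to 0.045. The cause was not tested. Slc16a3 ran from 0.83 to 1.02 and Bnip3 from 0.5 to 0.65; their groups do not overlap, which fixes the sign. The number of arrays and the missing measure of background limit the genes below the median level.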

Other observations

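A second single-symbol probe set, not used above, existed for 6 of the genes. For Pdk1 probe set 17548205 stood at 0.91 and 1.13 in siNF90, against 0.86 and 0.82 in siNTC, a difference of 0.18 with the sign of the probe set used. For Ndrg1 probe set 17312032 stood at 1.48 and 1.61 in siNF90, against 1.64 and 1.55 in siNTC. The groups overlapped, at a level below the median of all genes. For Car9 probe set 17413352 gave a difference of -0.05, of the opposite sign to the one used, and both sets lay below the median level. For Gapdh the 2 other probe sets gave 0.01 and 0.005, for Hif1a the other gave -0.03 and for Pgam1 0.1. A probe set that carries both Csnk1d and Slc16a3 (17273420) stood at 5.86 and 5.79 in siNF90, against 5.87 and 5.87 in siNTC, a difference of -0.05. Its signal cannot be assigned to either gene, and it did not show the difference of 0.93 of the probe set that carries Slc16a3 alone.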
